A study of Arabidopsis thaliana with 6 samples.

Results

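Jasmonates are lipid-derived hormones that plants make after wounding and herbivory and that flowers need for fertility. They are built from a plastid fatty acid by lipoxygenase, allene oxide synthase and allene oxide cyclase, and the cyclic product is reduced in the peroxisome before it is shortened to jasmonic acid. The active form is an isoleucine conjugate. It joins the receptor COI1 to JAZ repressors, which are then degraded, so that the transcription factor MYC2 is released and switches on response genes, among them those of JAZ repressors, of the synthesis enzymes and of vegetative storage proteins. Oxidases and hydrolases withdraw the hormone again. Here 8 genes of this pathway were followed among the 454 genes of the processed table, chosen by locus and by role. They are the synthesis genes *AOC1*, *AOC2* and *OPR3*, the jasmonate oxidase gene AT5G05600, the signalling genes *MYC2* and *TIFY7*, and the storage protein genes *VSP1* and *VSP2*.

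The study asked what SAP18 and SR45, partners in the nuclear ASAP complex that takes part in splicing, contribute to gene expression in *Arabidopsis*. Seeds were stratified, and whole seedlings aged 11 days, kept at 22 °C on MS medium in days of 16 h light and nights of 8 h, gave the RNA. No heat or hormone treatment is named for them, and mRNA was sequenced in 6 libraries. These were 2 libraries labelled *sap18*, 2 of *sr45* and 2 of the wild type Col-0. The names *sap18* and *sr45* stand for T-DNA insertion lines in the Col-0 background, 1 line each. For 2 libraries the labels disagree, since their descriptions and the series design say *sap18* whereas their titles and genotype tags say *sap18sr45*. *SR45* transcript was 20.9 and 23.1 cRPKM in these libraries, 5.39 and 4.98 in those of *sr45* and 23.1 and 19.4 in those of Col-0, so it was low only in *sr45*, which goes against the title of the other pair. *SAP18* transcript was 936 and 900 cRPKM in the libraries labelled *sap18*, 75.6 and 94.3 in those of *sr45* and 76.6 and 83.7 in those of Col-0. The *SAP18* transcript was therefore not lost in that pair. By the ratio of means it stood 11.4-fold above Col-0, and its log2 change there ranked highest of the 454 genes. Whether the transcript is intact or yields protein was not examined here. The paper describes *sap18* as a loss-of-function mutant, whose heat sensitivity was complemented by a genomic *SAP18* construct. That pair is called the libraries labelled *sap18* throughout.

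Levels are given in cRPKM, reads scaled by the mappable length of a gene and by the size of the library, after quantile normalization by the authors. The table holds the genes that the study listed as changed in at least 1 line, and all 454 exceeded 5 cRPKM in both libraries of some genotype. Each of the 8 genes is thus present because of a change in these libraries, and its direction in the comparison that admitted it is no independent evidence. Log2 changes and adjusted p-values are from limma on log2(cRPKM + 1), fitted to all 454 genes and 3 genotypes at once with Benjamini-Hochberg adjustment at 0.05, and shares of all 454 genes are given as background. A gene met the fold criterion when each of the 4 pairs of a library of a line and a Col-0 library differed at least 2-fold in the same direction, with more than 5 cRPKM in both libraries of either genotype. *MYC2* met this criterion in neither line and is in the table all the same, so the study's list was not made by exactly this rule. The read depth behind a single value is unknown. Whether the libraries of a genotype stem from separate plantings is not given in the sources used here, and the spread behind the p-values may thus be technical. In whole seedlings, fewer cells that express a gene and less RNA per cell cannot be told apart. Of 5 leaf and 6 root marker genes listed, 0 were among the 454, so the tissue label could not be checked.

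MYC2 binds G-box-like DNA, and 5 of the 8 genes shared one such motif close to their start. The motif is the T/G-box AACGTG, searched on both strands from 250 bases before to 50 bases after the annotated start of each gene in TAIR10.1 (RefSeq). It was found in 5 of 8 members (62.5%), against 8.95% of 27443 protein-coding genes and 11.0% of 419 other genes of the table. The stretches below are shown because they carry this shared motif. Each is read 5′ to 3′ on the strand of its gene, with 12 bases on either side and the motif in capitals. In all 5 the motif lies on the opposite strand, so it reads CACGTT here. Its first base is at -138 for *AOC1*, 41 for *AOC2*, 9 for AT5G05600, -115 for *MYC2* and -170 for *VSP1*, counted from the start of the gene.
AOC1, chr3:9403629-9403658, plus strand: cttcacaagtcgCACGTTtttcatttttct
AOC2, chr3:9406697-9406726, plus strand: caatgcttagatCACGTTccgaccatggaa
AT5G05600, chr5:1672066-1672095, plus strand: aatacttattcaCACGTTtcattaaataac
MYC2, chr1:11801505-11801534, minus strand: ttagcaacgactCACGTTatatagatatgc
VSP1, chr5:8509354-8509383, minus strand: gtttatacacatCACGTTttgcattattgt

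The canonical G-box CACGTG was found in 0 of the 8 windows, against 7.68% of all protein-coding genes, and the variant CACATG in 2 of 8, against 12.9%. No stretch of 6 bases can match more than 1 of the 3 motifs on either strand, and a match describes letters and not a bound site. Over the 1000 bases before the start, *TIFY7* had a G-box at -366 and T/G-boxes lay at -813 in *TIFY7* and at -773 in *OPR3*. In that window the T/G-box was found in 5 of 8, against 23.8% of all protein-coding genes and 29.1% of the other genes of the table, the G-box in 1 of 8, against 14.8%, and the variant in 4 of 8, against 37.7%. *VSP2* had none of the 3 motifs in either window. The 250 bases before the start are shown for *MYC2*, the regulator, and for *VSP1*, the storage protein gene with a T/G-box. The T/G-box is in capitals.
MYC2, chr1:11801408-11801657, minus strand: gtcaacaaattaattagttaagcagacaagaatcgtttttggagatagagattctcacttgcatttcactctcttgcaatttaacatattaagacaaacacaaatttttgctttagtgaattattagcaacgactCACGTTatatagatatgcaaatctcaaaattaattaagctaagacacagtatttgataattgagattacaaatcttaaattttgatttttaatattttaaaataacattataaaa
VSP1, chr5:8509202-8509451, minus strand: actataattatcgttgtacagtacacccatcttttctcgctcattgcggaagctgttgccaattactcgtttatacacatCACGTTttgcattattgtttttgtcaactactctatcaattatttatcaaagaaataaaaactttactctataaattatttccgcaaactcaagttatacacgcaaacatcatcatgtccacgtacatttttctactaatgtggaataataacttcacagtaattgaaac

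**Figure D1:**
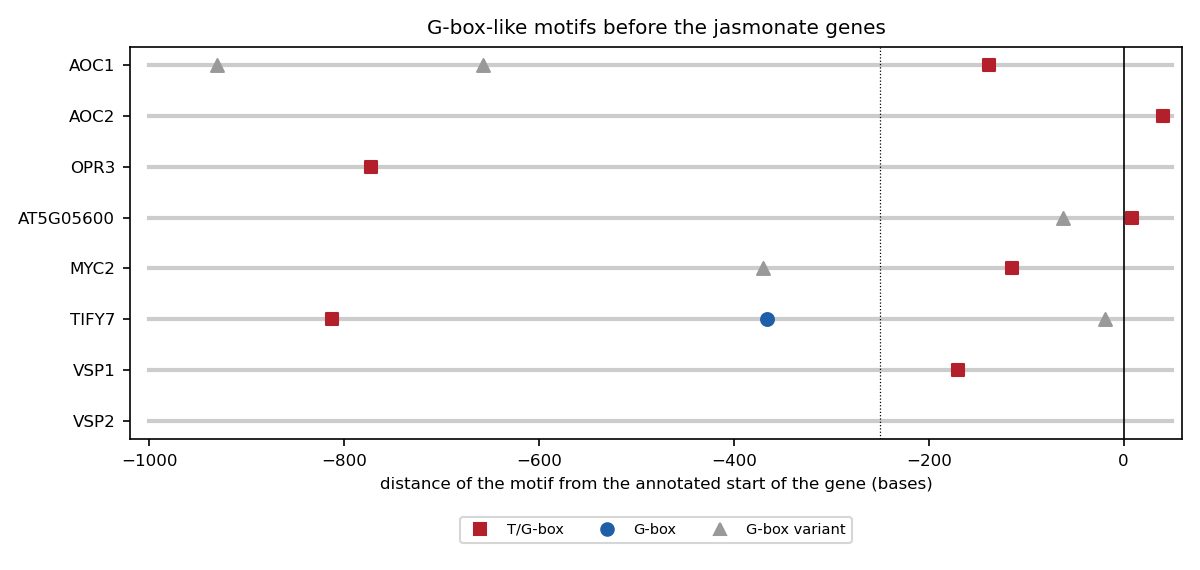
Positions of the T/G-box, the G-box and the CACATG variant (x axis, bases from the annotated start of the gene; rows, the 8 genes), with the dotted line 250 bases before the start. T/G-boxes fall between -170 and 41 in *AOC1*, *AOC2*, AT5G05600, *MYC2* and *VSP1*.

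All 8 genes fell in *sr45*, where 61.0% of the 454 genes passed limma as lower. Of the 8, 6 also fell in the libraries labelled *sap18*, beside 45.8% of the 454, and 7 had higher levels there than in *sr45*, beside 44.3%. The smallest relative level in *sr45* belonged to the oxidase gene AT5G05600, at 0.185 of Col-0, and the largest to *MYC2*, at 0.477. In the libraries labelled *sap18* the levels ran from 0.429 of Col-0 for AT5G05600 to 0.811 for *MYC2*. For 7 of the 8 genes, *MYC2* being the exception, the libraries did not overlap and stood in the order *sr45*, libraries labelled *sap18*, Col-0. The same order held for 39.4% of the 454 genes. It held for 3 of the 8 once each line was rescaled on the genes that met the fold criterion in the other line alone. For the libraries labelled *sap18* those genes included *AOC1*, *AOC2*, AT5G05600, *TIFY7*, *VSP1* and *VSP2*, so their values after this rescaling are no independent check.

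**Figure D2:**
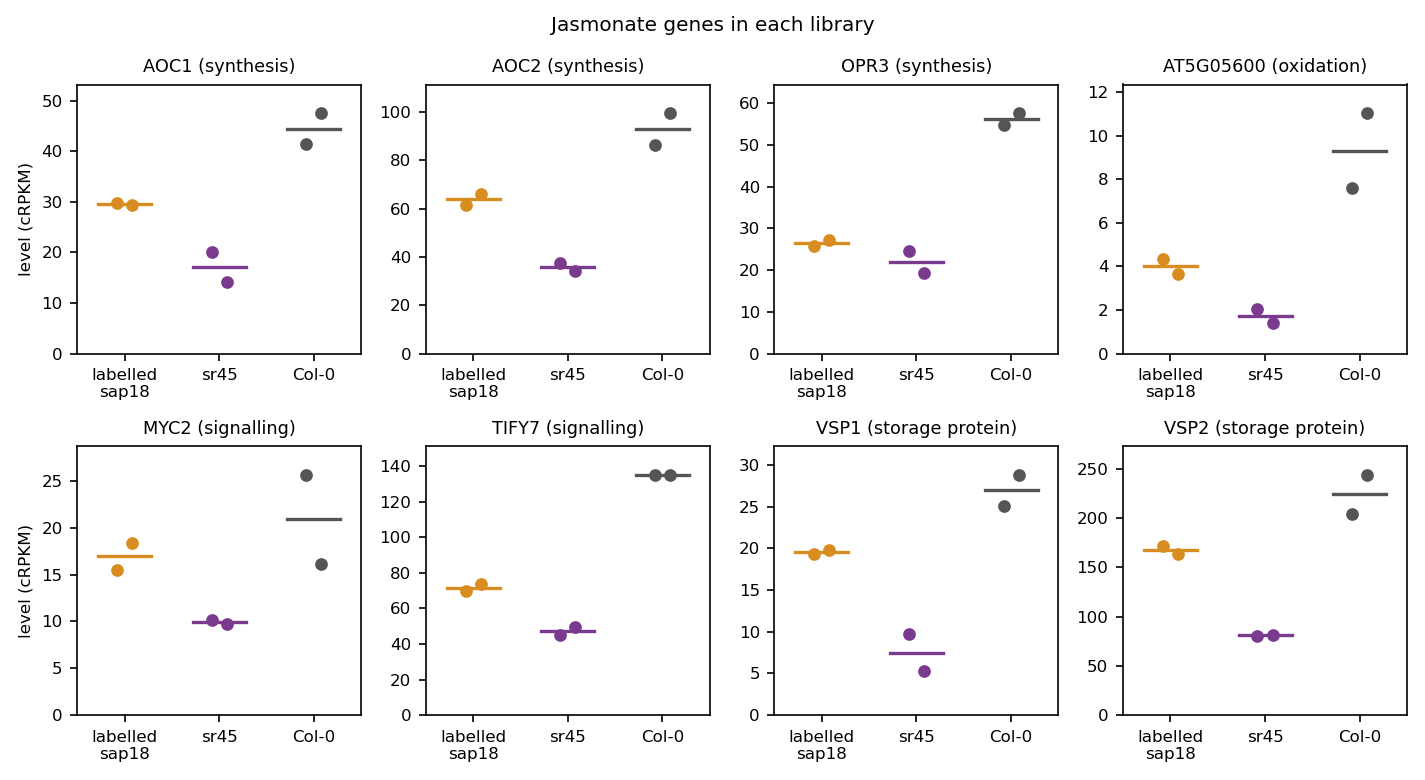
Level of each gene in cRPKM (y axis, from 0) in the 2 libraries labelled *sap18*, 2 of *sr45* and 2 of Col-0, with points for libraries and bars for means. Col-0 stands highest in every panel by its mean, and *MYC2* is the gene in which a Col-0 library, at 16.2 cRPKM, lies between those labelled *sap18*, at 15.5 and 18.4.

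Allene oxide cyclase closes the ring of the jasmonate precursor, and *AOC1* and *AOC2* are neighbouring copies of its gene on chromosome 3, from 9403779 to 9405338 and from 9406669 to 9408071, 1330 bases apart. *AOC2* had 61.7 and 66.0 cRPKM in the libraries labelled *sap18*, 37.6 and 34.1 in those of *sr45* and 86.2 and 99.5 in those of Col-0. *AOC1* had 29.7 and 29.4 cRPKM in the libraries labelled *sap18*, 20.02 and 14.2 in those of *sr45* and 41.4 and 47.5 in those of Col-0. Both genes were thus lowest in *sr45* and intermediate in the libraries labelled *sap18*, without overlap in the values as deposited. The log2 change in *sr45* was -1.35 for *AOC2* (standard error 0.15, adjusted p = 0.00020, limma) and -1.34 for *AOC1* (standard error 0.19, adjusted p = 0.00037). For the libraries labelled *sap18* it was -0.53 for *AOC2* (standard error 0.15, adjusted p = 0.015) and -0.57 for *AOC1* (standard error 0.19, adjusted p = 0.026). With the lines rescaled in this way, these values were -0.021 for *AOC2* (adjusted p = 0.91) and -0.069 for *AOC1* (adjusted p = 0.78), and the order of levels did not hold for either gene.

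*OPR3*, on chromosome 2 from 2359114 to 2362375, encodes the peroxisomal reductase that acts after the cyclase. It had 25.7 and 27.2 cRPKM in the libraries labelled *sap18*, 24.7 and 19.4 in those of *sr45* and 54.7 and 57.6 in those of Col-0. Unlike the cyclase genes, *OPR3* was almost as low in the libraries labelled *sap18* as in *sr45*. Its log2 change was -1.06 in the libraries labelled *sap18* (standard error 0.17, adjusted p = 0.0014, limma) and -1.32 in *sr45* (standard error 0.17, adjusted p = 0.00025). The difference between the lines, libraries labelled *sap18* minus *sr45*, was 0.26 with a 95% interval from -0.12 to 0.65 (adjusted p = 0.19), which leaves room for no difference and for one as large as that of *TIFY7*. It was 0.59 with the lines rescaled (adjusted p = 0.014) and -0.12 with each library divided by its median (adjusted p = 0.59), so whether *OPR3* differed between the lines turned on the scaling. *OPR3* was the 1 gene of the 8 that met the fold criterion in the libraries labelled *sap18*, as 10.6% of all 454 genes did on the lower side.

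The oxidase gene AT5G05600, on chromosome 5 from 1672070 to 1674770, encodes an oxygenase of the 2-oxoglutarate and iron dependent family. Such jasmonate oxidases hydroxylate the hormone and thereby inactivate it. Its level was the lowest of the 8 in every genotype, at 4.36 and 3.64 cRPKM in the libraries labelled *sap18*, 2.02 and 1.41 in those of *sr45* and 7.59 and 11.0 in those of Col-0. The other 4 libraries stood below both Col-0 libraries, and only Col-0 exceeded 5 cRPKM. The gene thus met the minimum level through Col-0 alone, so its fall in the lines is no independent evidence. By the ratio of means the libraries labelled *sap18* stood 2.33-fold below Col-0 and *sr45* 5.42-fold. With the pseudocount, which understates changes at such levels, the log2 change was -1.03 in the libraries labelled *sap18* (standard error 0.21, adjusted p = 0.0033, limma) and -1.91 in *sr45* (standard error 0.21, adjusted p = 0.00017). In *sr45* it ranked 19 from the lowest of the 454 genes. A further gene that withdraws the hormone, *ILL6* (AT1G44350), which encodes a hydrolase of amino acid conjugates, was the 1 other gene of a list of 62 jasmonate genes to be found among the 454. It had 11.3 and 11.8 cRPKM in the libraries labelled *sap18*, 8.47 and 7.33 in those of *sr45* and 16.1 and 19.3 in those of Col-0. Its log2 change was -0.58 in the libraries labelled *sap18* (standard error 0.16, adjusted p = 0.012) and -1.07 in *sr45* (standard error 0.16, adjusted p = 0.00046), so that 9 of the 9 listed genes analysed fell in *sr45* and 7 of 9 fell in the libraries labelled *sap18*, beside 61.0% and 45.8% of a table selected for change. By role, these 9 were 3 of 19 listed synthesis genes, 2 of 9 for oxidation and hydrolysis, 2 of 21 for signalling and 2 of 13 response genes. The rest of the list was not analysed here.

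The signalling genes differed in how far they fell. *TIFY7*, also named *JAZ9*, on chromosome 1 from 26654529 to 26657350, encodes a JAZ repressor that binds MYC2 and is itself induced by jasmonate. It had 70.0 and 73.5 cRPKM in the libraries labelled *sap18*, 45.2 and 49.4 in those of *sr45* and 135.1 and 135.3 in those of Col-0. The gaps between genotypes were far wider than those between libraries of a genotype. The log2 change was -0.90 in the libraries labelled *sap18* (standard error 0.14, adjusted p = 0.0015, limma) and -1.50 in *sr45* (standard error 0.14, adjusted p = 9.5e-05).

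*MYC2*, on chromosome 1 from 11798119 to 11801407, encodes the basic helix-loop-helix factor at the centre of the response. It had 15.5 and 18.4 cRPKM in the libraries labelled *sap18*, 10.2 and 9.78 in those of *sr45* and 25.7 and 16.2 in those of Col-0. Both *sr45* libraries lay below the other 4, while the libraries labelled *sap18* overlapped with those of Col-0. Its log2 change in *sr45* was -0.96 (standard error 0.22, adjusted p = 0.0035, limma), which equals the median of all 454 genes, and it was the 1 member that missed the fold criterion there, with a highest ratio of 0.629. In the libraries labelled *sap18* the log2 change was -0.26 with a 95% interval from -0.77 to 0.26 (adjusted p = 0.31). The sign of that value rests on Col-0 replicate 1, as it was 0.060 without this library, and it was 0.23 with the lines rescaled.

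The storage protein genes *VSP1* and *VSP2*, classical jasmonate-induced genes that encode acid phosphatase-like proteins of leaves and flowers, are neighbours on chromosome 5, from 8507590 to 8509201 and from 8500468 to 8502224. *VSP2* had the highest level of the 8 genes, with 172 and 164 cRPKM in the libraries labelled *sap18*, 80.2 and 81.7 in those of *sr45* and 204 and 244 in those of Col-0. *VSP1* had 19.4 and 19.8 cRPKM in the libraries labelled *sap18*, 9.70 and 5.26 in those of *sr45* and 25.1 and 28.8 in those of Col-0. Both genes were much lower in *sr45* and less far below Col-0 in the libraries labelled *sap18*. In *sr45* the log2 change was -1.77 for *VSP1* (standard error 0.25, adjusted p = 0.00036, limma) and -1.45 for *VSP2* (standard error 0.15, adjusted p = 0.00015). For the libraries labelled *sap18* it was -0.44 for *VSP1* (standard error 0.25, adjusted p = 0.14) and -0.41 for *VSP2* (standard error 0.15, adjusted p = 0.041). *VSP1* passed there, with an adjusted p of 0.027, when both *sr45* libraries or either of them were left out of the fit. The 4 ratios to Col-0 for *VSP2* there ran from 0.671 to 0.840. With the lines rescaled, the values turned to 0.056 for *VSP1* and 0.10 for *VSP2*, and neither passed.

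Set against the whole table, the fall in *sr45* was shared by most genes and was deeper in 7 of these 8, all but *MYC2*. The median log2 change of the 8 in *sr45* was -1.40, against -0.96 over all 454 genes. By the fold criterion 7 of the 8 were lower in *sr45*, against 30.2% of the 454. Such a fall could itself place a gene in a table selected for change. That these genes lay below the median of the table is therefore partly fixed by the selection. With each library divided by its median over the table, AT5G05600 alone of the 8 met the fold criterion in *sr45*. Across the libraries labelled *sap18* the median of the 8 was -0.55, against -0.38 over all genes. Relative to the median of the table, the change in the libraries labelled *sap18* was -0.68 for *OPR3*, -0.65 for AT5G05600 and -0.53 for *TIFY7*, but -0.03 for *VSP2* and 0.12 for *MYC2*. The calls for *OPR3*, AT5G05600 and *TIFY7* in these libraries held in each of 14 alternatives. These alternatives are not independent checks. The filter removed no gene, and leaving out either *sr45* library gave the same values as leaving out both. The calls for *AOC1*, *AOC2* and *VSP2* did not, since 3 of the 8 passed under either rescaling, 3 without *sap18* replicate 1, 3 without *sap18* replicate 2 and 4 without Col-0 replicate 2, the last with *MYC2* among them.

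**Figure D3:**
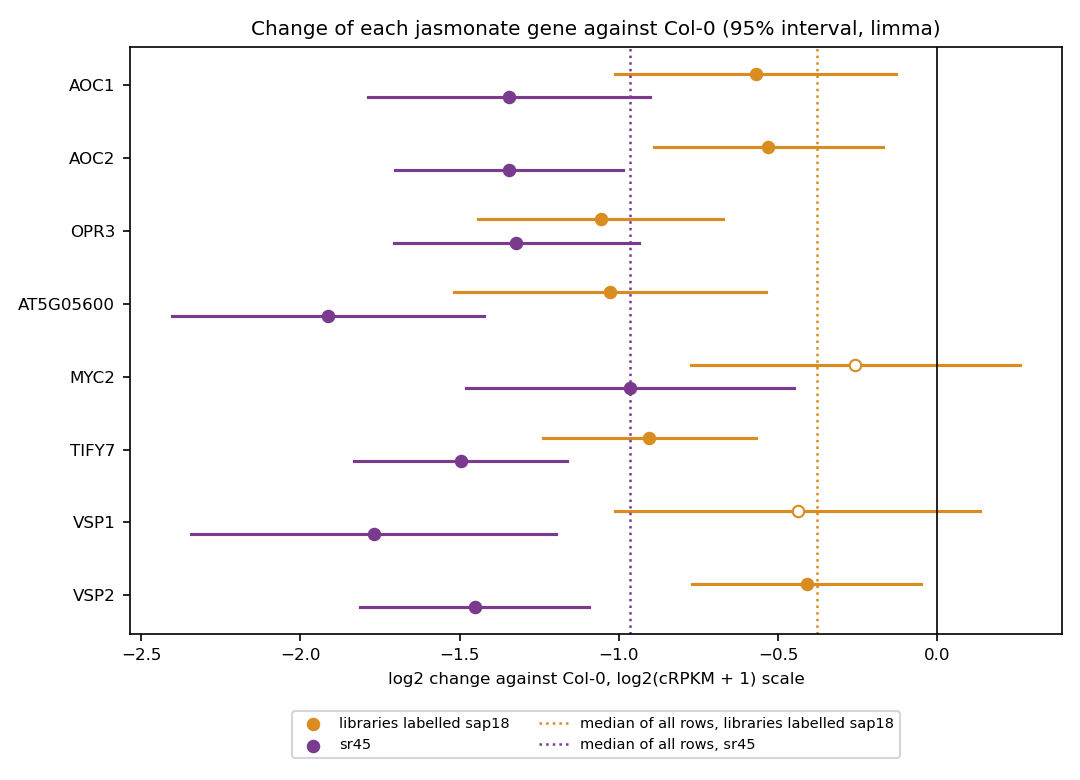
Log2 change against Col-0 on the log2(cRPKM + 1) scale (x axis) for each gene in both lines, the libraries labelled *sap18* drawn above *sr45*, with 95% intervals from limma. Filled points passed at an adjusted p of 0.05, and the dotted lines at -0.38 and -0.96 are the medians of all 454 genes; *MYC2* and *VSP1* in the libraries labelled *sap18* are the open points.

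In the direct comparison of the lines *VSP1* differed most of the 8 by the ratio of means, libraries labelled *sap18* over *sr45*. That ratio was 2.62 for *VSP1*, 2.33 for AT5G05600 and 2.07 for *VSP2*. With the pseudocount of 1, *VSP2* came before AT5G05600. Libraries labelled *sap18* minus *sr45*, the log2 difference was 1.33 for *VSP1* (95% interval 0.76 to 1.90, adjusted p = 0.0033, limma) and 1.04 for *VSP2* (0.68 to 1.40, adjusted p = 0.0013). It was 0.88 for AT5G05600 (0.39 to 1.37, adjusted p = 0.0097), 0.82 for *AOC2* (0.46 to 1.17, adjusted p = 0.0036) and 0.77 for *AOC1* (0.33 to 1.22, adjusted p = 0.011). The signalling genes gave 0.71 for *MYC2* (0.19 to 1.22, adjusted p = 0.027) and 0.59 for *TIFY7* (0.26 to 0.93, adjusted p = 0.011). Thus 7 of the 8 passed as higher in the libraries labelled *sap18*, against 44.3% of the 454 genes, and *OPR3* did not pass. Of these, *VSP1* and *VSP2* passed under each of 14 alternatives, some of which coincide here as well. The count was 3 with division by the median, 3 without *sap18* replicate 1 and 4 without *sap18* replicate 2.

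Ratios taken within a library are not changed by multiplying that library by a constant, although the quantile normalization by the authors, which works on ranks, can change them. The ratio of *AOC2* to *AOC1* was 2.08 and 2.25 in the libraries labelled *sap18*, 1.88 and 2.41 in those of *sr45* and 2.083 and 2.095 in those of Col-0, and so did not separate the genotypes (exact two-sided permutation p = 1 in each line against Col-0). The ratio of *VSP2* to *VSP1* was 8.87 and 8.27 in the libraries labelled *sap18*, 8.27 and 15.5 in those of *sr45* and 8.14 and 8.47 in those of Col-0 (exact two-sided permutation p = 0.67 in each). The high value came from *sr45* replicate 2, in which *VSP1* was 5.26 cRPKM. With 2 libraries against 2, this test cannot go below 0.33. The coding sequences of *AOC1* and *AOC2* are 90.3% identical and those of *VSP1* and *VSP2* 90.4%, yet 0% and 0.4% of the windows of 50 bases in one transcript recur in its neighbour.

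Between roles, the gap of the storage protein genes to the synthesis genes was wider for the libraries labelled *sap18* than for Col-0 and narrower for *sr45*, but not through all members alike. The mean log2 level of *VSP1* and *VSP2* minus that of *AOC1*, *AOC2* and *OPR3* was 0.67 and 0.60 in the libraries labelled *sap18*, 0.07 and -0.02 in those of *sr45* and 0.30 and 0.37 in those of Col-0. The 3 genotypes did not overlap. By the log2 ratio to Col-0 without a pseudocount, the libraries labelled *sap18* had -1.09 for *OPR3*, whereas *AOC1* at -0.59 and *AOC2* at -0.54 stood near *VSP1* at -0.46 and *VSP2* at -0.41. In *sr45* the ratio was -1.91 for *VSP1*, whereas *VSP2* at -1.46 stood near the synthesis genes at -1.40, -1.37 and -1.36. The wider gap thus came mostly with *OPR3*. By these means the narrower one came mostly with *VSP1*, but that rests on *sr45* replicate 2. In *sr45* replicate 1 the gap was also narrow, at 0.07, while the ratio of *VSP2* to *VSP1*, 8.27, lay within the Col-0 values. The oxidase gene minus the synthesis genes was -3.05 and -3.37 in the libraries labelled *sap18*, -3.71 and -3.90 in those of *sr45* and -2.94 and -2.55 in those of Col-0, so it was lower relative to the synthesis genes in all 4 libraries of *sr45* and labelled *sap18*. The signalling genes minus the synthesis genes was -0.13 and -0.03 in the libraries labelled *sap18*, -0.31 and 0.06 in those of *sr45* and 0.02 and -0.47 in those of Col-0, with overlap throughout. These differences over chosen genes are descriptions and were not tested.

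**Figure D4:**
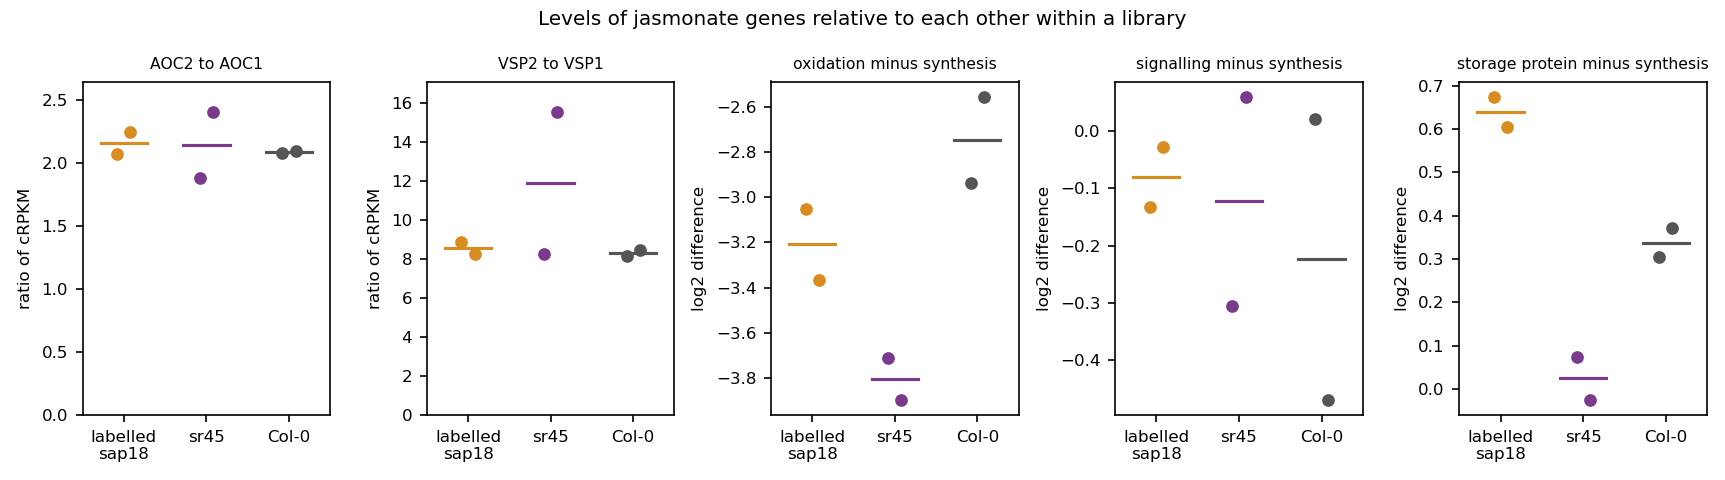
Ratio of *AOC2* to *AOC1* and of *VSP2* to *VSP1*, and log2 difference of the oxidase, signalling and storage protein genes from the synthesis genes (y axes), in each library labelled *sap18*, of *sr45* and of Col-0. The storage protein genes stand at 0.60 and 0.67 above the synthesis genes for the libraries labelled *sap18*, and at -0.02 and 0.07 for *sr45*, on either side of Col-0.

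Touching and wounding seedlings raises jasmonate as well as touch-induced genes, and 3 of 10 listed genes of that kind were among the 454. These were *CML24* and *XTH22*, known as *TCH2* and *TCH4*, and *WRKY33*. Their summed level was 141 and 152 cRPKM in the libraries labelled *sap18*, 59.7 and 60.5 in those of *sr45* and 61.5 and 63.0 in those of Col-0. By limma the log2 change in the libraries labelled *sap18* was 1.03 for *CML24* (adjusted p = 0.0015), 1.36 for *XTH22* (0.00037) and 0.91 for *WRKY33* (0.0018). These ranked 391, 431 and 370 from the lowest of the 454 genes. In *sr45* it was 0.44 for *CML24* (adjusted p = 0.033), -0.54 for *XTH22* (0.0094) and 0.15 for *WRKY33* (0.38). These 3 genes are present because of a change in these libraries. The part of handling in the levels of the jasmonate or touch genes was not tested. Of 9 circadian clock genes listed, 0 were among the 454.

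The genes most like the 8 in pattern were sought over the 6 libraries, by Pearson correlation of each other gene's centred log2 level with the mean profile of the members. The closest 5 of 446 were AT5G64460, of the phosphoglycerate mutase family (r = 0.999), *UKL3*, a uridine kinase-like gene (0.996), AT3G53830, of the RCC1 family (0.993), AT5G10320, annotated as an ATP synthase subunit (0.993), and *PP2A13*, a phloem protein gene (0.992). AT5G64460 had 54.4 and 55.5 cRPKM in the libraries labelled *sap18*, 37.3 and 32.1 in those of *sr45* and 83.0 and 88.3 in those of Col-0. Such a profile is common in the table, as 13.5% of the other genes had a correlation above 0.95. Among the members themselves the correlation with the mean profile, which includes them, ran from 0.863 for *MYC2* and 0.924 for *OPR3* to 0.995 for *AOC2*.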

How the data were processed

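The 6 libraries were grouped by their descriptions. The authors quantified reads with vast-tools and applied quantile normalization. The deposited values are cRPKM, an RPKM that counts only mappable positions. The submitters' notes name TAIR10. Columns without a sample numbered 0.

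limma 3.58.1 in R 4.3.3 was fitted to log2(cRPKM + 1) of all 454 genes, with 1 fit for the 3 genotypes and Benjamini-Hochberg adjustment per comparison. The step was tested on simulated data. The pseudocount of 1 understates changes of low genes. No count test was run, since the deposited values are not counts.

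Gene models and sequences were read from TAIR10.1 (RefSeq), in which 450 of 454 loci were found, with Biopython 1.88 under Python 3.11.15. Tables were handled with pandas 2.3.3 and numpy 2.4.6, permutations with scipy 1.17.1, and plots with matplotlib 3.10.9. The members, lists and tests were chosen with earlier results of these data known. Named genes were the 8 members, *SR45* and *SAP18*, listed pathway genes in the table, up to 4 genes of each other list, and the 5 genes most like the members. The alternatives varied the pseudocount, filter, prior variance, fold threshold, scaling, replicate block, the samples fitted and each library.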

Additional observations from a re-analysis of the deposited data

Results flagged for a closer look

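For 7 genes the change against Col-0 differed between the libraries labelled *sap18* and *sr45* when limma compared them directly, where 44.3% of the 454 genes were called as higher in the libraries labelled *sap18*. The count was 3 with each library divided by its median. The log2 difference, with *sr45* subtracted, was 0.774 for *AOC1*, 0.815 for *AOC2*, 0.884 for AT5G05600, 0.707 for *MYC2*, 0.592 for *TIFY7*, 1.331 for *VSP1* and 1.042 for *VSP2*. Both changes are taken against the same Col-0 libraries, and the labels of the libraries called *sap18* disagree, as described above.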

How the results depend on the processing

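All 8 genes fell in *sr45* by limma under 13 of 14 alternatives, including a fit without the libraries labelled *sap18*, and 7 with each library divided by its median (*MYC2* did not pass). That division removes the median change of a table selected for change, and the other rescaling centres each line on genes that met the fold criterion in the other line only. Those genes may have changed as well. For the libraries labelled *sap18* they include *AOC1*, *AOC2*, AT5G05600, *TIFY7*, *VSP1* and *VSP2* themselves. This rescaling shifts the libraries labelled *sap18* by 0.52 and *sr45* by 0.18 (log2). In the libraries labelled *sap18*, 3 genes in place of 6 passed as lower under either scaling, and from 3 to 7 without single libraries. By the fold criterion the 1 gene there became 3 at a threshold of 1.5, 2 from group means, 0 under either scaling and 1 to 2 without single libraries, and in *sr45* the 7 became 1 with division by the median. Between the lines the 7 became 3 with division by the median, 8 with the lines rescaled (*OPR3* at 0.59, adjusted p = 0.014, limma) and 3 to 7 without single libraries. The order of levels held for 3 genes with the lines rescaled, and for 7 to 8 without single libraries.

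Signs that turned, none past the threshold as turned, were *OPR3* between the lines (-0.12, division by the median), and, in the libraries labelled *sap18*, *MYC2* (0.23), *VSP1* (0.056) and *VSP2* (0.10) with the lines rescaled and *MYC2* (0.060) without Col-0 replicate 1, with a range to -0.57 without Col-0 replicate 2. For *SR45* in the libraries labelled *sap18* the change was -0.02 without *sap18* replicate 2, -0.070 without Col-0 replicate 2 and 0.17 without Col-0 replicate 1. It was 0.25 with division by the median and 0.55 with the lines rescaled, where it passed (adjusted p = 0.02, limma). For *SAP18* in *sr45* it was -0.083 without *sr45* replicate 2. With division by the median that change was 0.67 and passed (adjusted p = 0.01, limma). With the replicate number as a block, 8 genes were lower in *sr45*, 5 in the libraries labelled *sap18* (*VSP2* did not pass, adjusted p = 0.054, limma) and 7 passed between the lines. Nothing says that the numbers pair libraries, and deviations of same-numbered libraries correlated by 0.08, -0.03 and -0.11. The filter above 5 cRPKM removed no gene and so repeats the main fit. For a comparison of 2 genotypes, leaving out either library of the third gave the same values as leaving out both. The depth behind single values is unknown, so precision rests on 2 libraries a genotype.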

Other observations

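The 8 genes differ in structure. In the longest coding transcript *MYC2* has 0 introns, *AOC1* and *AOC2* 1 each, AT5G05600, *VSP1* and *VSP2* 2 each, *OPR3* 4 and *TIFY7* 5. Of 427 genes of the table with a protein-coding model, 19.2% have no intron and the median is 4 introns. Log2 changes in *sr45* were -0.96 for the intronless *MYC2*, and -1.34 and -1.35 for *AOC1* and *AOC2*. With 2 introns each, AT5G05600 had -1.91, *VSP1* -1.77 and *VSP2* -1.45. *OPR3* had -1.32 and *TIFY7* -1.50. A relation to the number of introns was not tested. Splicing of these transcripts was not analysed here.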
